A study of Mus musculus with 9 samples.

Results

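The genes described here are those of glycolysis and of the transcriptional response to low oxygen, 39 listed genes read on 9 arrays of mouse bone marrow cells carrying NUP98-CDX1, NUP98-CDX4 or EGFP. A listed gene entered where 3 or more of the 9 arrays detected a probe with its platform symbol (detection p under 0.05), and the brightest such probe represented it. This gave 32 genes of 10018 named genes tested, 13 glycolytic enzymes, 6 regulators and transporters, 3 oxygen sensing genes and 10 other hypoxia targets. Hk2, Gpi1 and Eno1 had no probe with that symbol and were not analysed here. Eno2 was detected on 2 arrays, and Bnip3, Higd1a and Adm on 0 arrays, so these 4 stayed below the filter. The list was drawn up with results of these data known, and the filter used detection alone.

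The mice were of strain C57/B6, 6 to 8 weeks old, and all 9 samples were total RNA from their marrow after treatment with 5-FU (fluorouracil, which kills dividing blood cells and leaves stem and early progenitor cells). Cells received EGFP, a green fluorescent protein that served as the control, NUP98-CDX4 or NUP98-CDX1 by transfection, and the culture medium (IMDM) held 2% serum with IL-6 and stem cell factor. In such fusions part of the nuclear pore protein NUP98 is joined to a homeodomain transcription factor, here a member of the caudal family (CDX1 or CDX4), and related NUP98 fusions are known from acute leukaemia. The 3 samples of each group were numbered 1 to 3, and the labels do not say whether they came from separate mice or cultures or whether a line was clonal, so the p-values measure only the spread between these samples, which may be technical. The column headers give the EGFP samples day 21, the NUP98-CDX1 samples day 28 and the NUP98-CDX4 samples days 17, 17 and 20, so day and group cannot be told apart.

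Glycolysis splits glucose to pyruvate with a small yield of ATP and needs no oxygen, and blood stem cells in the poorly oxygenated marrow are known to rely on it. With oxygen present the prolyl hydroxylases (EGLN proteins) mark the factor HIF1A for destruction. When oxygen falls HIF1A persists, pairs with ARNT and binds the core letters ACGTG or GCGTG near genes of glucose uptake, glycolysis, vessel growth and mitochondrial turnover. HIF1A is controlled mainly through the stability of its protein, which these arrays of transcripts do not measure.

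Mean probe signal ran from 400.6 to 754.3 over the arrays, and 38.1% to 42.6% of the 45281 probes were detected on an array. The 9 arrays fell into 2 sets by the signals of undetected probes, which correlated at 0.735 to 0.765 (Spearman) within the brighter set, at 0.43 to 0.455 within the dimmer set and at 0.319 to 0.381 between the sets. The dimmer set held EGFP replicate 3, NUP98-CDX4 replicate 2 and replicates 1 and 2 of NUP98-CDX1, and the other 5 arrays were brighter. The labels name no such batch. The 2 sets differed in 55.9% of the 13160 features tested, 9 of the 32 members being higher and 4 lower in the brighter set, so results are given without and with array set as a block. All 6 general blood cell markers (Ptprc, Spi1, Vav1, Cd53, Coro1a and Laptm5) passed the detection filter.

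For 36 of the 39 genes a promoter window of RefSeq (mouse build GRCm38.p6, 250 bases before to 50 bases after an annotated start, the most upstream start being used) was searched for ACGTG and GCGTG on both strands. A CACGTG counts as 2 overlapping matches, 1 on each strand. At least 1 match lay in 28 of the 36 windows (77.8%), in 11 of the 17 enzymes (64.7%) and in 9 of the 11 other hypoxia targets with a window (81.8%). The share was 63.1% over 8193 tested genes with a window and 43.8% over all 27025 genes of the table. Both searched words contain CG, and windows differed in their content of CG. The median count of CG in a window was 24 for the members, 21 for the tested genes and 7 for all genes. The shares were not adjusted for it. A match describes these letters and is no measured binding site. The windows of 4 genes that were higher in NUP98-CDX4 cells (Ankrd37, Egln3, Ak4 and Aldoc) and of Ldha, which did not pass in either fusion although its window held 7 matches, are printed with matches in capitals. They lie at chr8:45999801-46000100, minus strand (Ankrd37), chr12:54203825-54204124, minus strand (Egln3), chr4:101419039-101419338, plus strand (Ak4), chr11:78322823-78323122, plus strand (Aldoc) and chr7:46845554-46845853, plus strand (Ldha).
Ankrd37: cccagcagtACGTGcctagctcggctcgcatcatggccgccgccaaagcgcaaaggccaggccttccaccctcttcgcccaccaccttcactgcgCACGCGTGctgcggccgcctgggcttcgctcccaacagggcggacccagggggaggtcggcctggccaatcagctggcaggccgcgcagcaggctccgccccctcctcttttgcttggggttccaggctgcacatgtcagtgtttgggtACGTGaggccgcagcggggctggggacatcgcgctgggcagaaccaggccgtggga
Egln3: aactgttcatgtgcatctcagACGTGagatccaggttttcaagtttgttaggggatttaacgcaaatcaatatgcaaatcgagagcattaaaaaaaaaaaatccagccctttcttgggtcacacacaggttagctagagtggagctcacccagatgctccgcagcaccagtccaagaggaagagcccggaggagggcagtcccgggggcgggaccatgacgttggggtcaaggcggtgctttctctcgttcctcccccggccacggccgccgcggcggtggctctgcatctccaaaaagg
Ak4: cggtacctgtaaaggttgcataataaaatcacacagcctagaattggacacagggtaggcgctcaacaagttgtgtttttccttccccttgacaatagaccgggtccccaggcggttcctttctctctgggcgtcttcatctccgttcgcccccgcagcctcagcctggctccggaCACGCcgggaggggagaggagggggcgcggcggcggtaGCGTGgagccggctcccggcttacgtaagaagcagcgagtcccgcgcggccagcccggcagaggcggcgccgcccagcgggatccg
Aldoc: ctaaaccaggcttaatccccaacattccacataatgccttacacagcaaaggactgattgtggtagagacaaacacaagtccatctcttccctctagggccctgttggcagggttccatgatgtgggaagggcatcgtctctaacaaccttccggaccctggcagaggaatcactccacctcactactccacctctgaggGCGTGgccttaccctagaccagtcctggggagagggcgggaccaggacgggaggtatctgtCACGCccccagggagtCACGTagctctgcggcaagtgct
Ldha: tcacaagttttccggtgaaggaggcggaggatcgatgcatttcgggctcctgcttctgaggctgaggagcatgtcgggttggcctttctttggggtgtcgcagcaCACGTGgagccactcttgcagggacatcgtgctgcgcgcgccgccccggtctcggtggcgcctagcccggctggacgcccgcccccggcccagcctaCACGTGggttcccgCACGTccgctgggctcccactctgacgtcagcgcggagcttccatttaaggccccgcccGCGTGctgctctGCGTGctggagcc
The Ankrd37 window held 4 matches, Aldoc 3, Ak4 2 and Egln3 1. Among the other genes that passed, Pfkm had 3 matches and Kdm3a 1, and Vegfa had 0 at its most upstream start and 2 at another annotated start (chr17:46025114-46025413, minus strand). Of the 7 members that passed in NUP98-CDX4 cells 85.7% had a match, and of the 22 tested members with a window that did not pass 77.3% had 1. At 2 or more matches the order was the other way, 57.1% of those that passed and 63.6% of those that did not. The 3 genes without a window were Bnip3l, Slc2a3 and Ndrg1.

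The first comparison set NUP98-CDX4 against EGFP, as the study's design compares fusion lines with EGFP lines. In NUP98-CDX4 cells 7 of the 32 members rose and 0 fell (limma, Benjamini-Hochberg adjustment over all features), namely Ankrd37, Vegfa, Egln3, Ak4, Kdm3a, Aldoc and Pfkm. Over all 13160 features 5.36% passed, 2.42% higher and 2.95% lower. At an unadjusted p under 0.05 the count was 16 members higher, against 8.34% of all features, and 0 lower, against 7.14%. All 3 NUP98-CDX4 arrays lay above all 3 EGFP arrays for 18 members, against 11.7% of all features, and below them for 0 members, against 9.34%. The median log2 difference was 0.66 over the other hypoxia targets, 0.62 over the oxygen sensing genes, 0.46 over the regulators and transporters and 0.35 over the enzymes, against 0.03 over all features. P4ha2 passed the detection filter only through the fusion arrays (0 of 3 EGFP arrays detected it), so these counts and medians only describe the members that passed the filter. Without P4ha2 the arrays did not overlap for 17 of 31 members, 15 were higher at an unadjusted p under 0.05 and 7 rose. Array values are log2 intensities in the order of replicates 1 to 3, and signed differences are on the log2 scale.

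Markers of mature cells moved with the same groups. Of 10 tested neutrophil markers 5 fell in NUP98-CDX1 and 9 in NUP98-CDX4 cells, of 10 macrophage markers 3 and 8, and of 9 mast cell markers 4 and 8. Over all features 0.441% were lower and 0.600% higher in NUP98-CDX1 cells, and 2.95% and 2.42% in NUP98-CDX4 cells. The summed normalised intensity of the neutrophil markers (linear scale) was 66075 to 75054 with EGFP, 34821 to 40797 with NUP98-CDX1 and 6004 to 14183 with NUP98-CDX4. That of the macrophage markers was 30435 to 39805, 19812 to 32234 and 7688 to 18855, and that of the mast cell markers 12905 to 18842, 14826 to 20256 and 6885 to 7290. In the fit blocked by array set 6 neutrophil markers fell in NUP98-CDX1 cells and 9 fell and 1 rose in NUP98-CDX4 cells. There 9 and 10 macrophage markers fell, and 4 and 8 mast cell markers. With the block 2.77% of all features were lower and 2.96% higher in NUP98-CDX1, and 7.91% and 8.85% in NUP98-CDX4. None of the markers on these 3 lists with a probe was undetected on all arrays. Of the erythroid markers Gata1, Hba-a1, Alas2 and Slc4a1 were detected on 0 arrays. Of the 4 tested erythroid markers Tfr2, a transferrin receptor, rose in NUP98-CDX4 cells (log2 difference 1.01, adjusted p = 0.0395), and the sum over the 4 was 1490 to 2438 with EGFP, 1234 to 1505 with NUP98-CDX1 and 1417 to 5434 with NUP98-CDX4. Of 5 tested progenitor markers Meis1, a homeodomain partner of HOX proteins, rose in NUP98-CDX4 cells (1.78, adjusted p = 0.00123), and the sum was 9284 to 10156 with EGFP, 11280 to 13328 with NUP98-CDX1 and 11550 to 13700 with NUP98-CDX4. With the block Tfr2 and Meis1 also passed, higher, in NUP98-CDX1 cells. In these bulk samples fewer cells of a type and less RNA per cell cannot be told apart, and the part of these markers in the differences of the glycolytic and hypoxia genes was not tested. The cell division list gave 0 calls in 9 tested genes in either fusion, and 0 at an unadjusted p under 0.05, with a summed intensity of 24945 to 26155 with EGFP, 24550 to 25419 with NUP98-CDX1 and 24983 to 26355 with NUP98-CDX4.

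With array set as a block 16 members rose and 1 fell in NUP98-CDX4 cells, where 16.8% of all features passed (8.85% higher and 7.91% lower). The count without the block was 4 on leaving out EGFP replicate 2, EGFP replicate 3 or NUP98-CDX4 replicate 3. In these fits 2.52%, 3.86% and 2.9% of all features passed. Ankrd37, Vegfa, Egln3 and Ak4 passed in all 9 fits that left out 1 array. In the signs of the log2 differences, 27 members were higher in both array sets, against 39.3% of all features, 2 were lower in both, against 32.2%, and 3 differed between the sets.

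**Figure D1:**
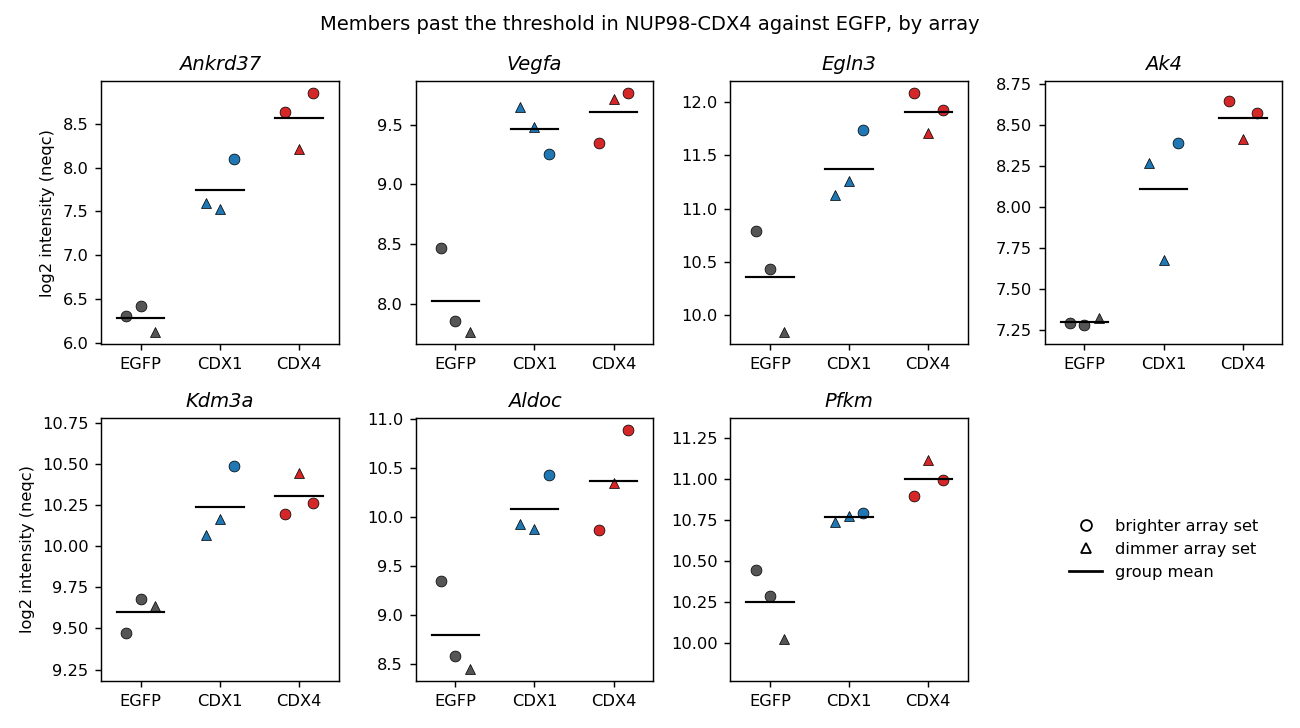
Background-corrected, quantile-normalised log2 intensity (y axis) of the 7 members past the threshold in NUP98-CDX4 against EGFP, by group (x axis), 1 point per array, circles for the brighter and triangles for the dimmer array set, with bars at the group means. The y axes differ between panels and do not start at 0; every fusion array lies above every EGFP array in all 7 panels.

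NUP98-CDX1 against EGFP gave 2 members that rose, Ankrd37 and Vegfa, and 0 that fell, where 1.04% of all features passed (0.600% higher and 0.441% lower). At an unadjusted p under 0.05 the count was 13 members higher, against 6.88% of all features, and 0 lower, against 4.30%. All 3 NUP98-CDX1 arrays lay above all 3 EGFP arrays for 16 members, against 9.13% of all features, and below them for 0, against 6.03%. Without P4ha2 these counts were 13 at the unadjusted threshold and 15 above every EGFP array. The median log2 difference was 0.45 over the other hypoxia targets, 0.34 over the oxygen sensing genes, 0.31 over the regulators and transporters and 0.35 over the enzymes, against 0.02 over all features. With array set as a block 7 members passed, all higher (Ankrd37, Vegfa, Egln3, Ak4, Kdm3a, Aldoc and Pfkm), where 5.73% of all features did (2.96% higher and 2.77% lower). The count of 2 fell to 1 without EGFP replicate 1, where 0.365% of all features passed. It fell to 0 without EGFP replicate 2 (0.251%), EGFP replicate 3 (0.707%), NUP98-CDX1 replicate 1 (0.334%) or NUP98-CDX1 replicate 2 (0.251%). Both comparisons use the same 3 EGFP arrays, so the values of the fusions are set side by side and their likeness is not counted as a result.

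Between the fusions 0 of the 32 members passed without the block, where 0.144% of all features did (0.0304% higher and 0.114% lower), and 1 member (Ankrd37, higher) had an unadjusted p under 0.05, where 2.55% of all features were higher and 4.30% lower. With array set as a block Ankrd37 passed, where 1.47% of all features did (0.342% higher and 1.12% lower). All 3 NUP98-CDX4 arrays lay above all 3 NUP98-CDX1 arrays for Ankrd37, Ak4 and Pfkm, 3 of 32 members against 4.53% of all features, and below them for 0, against 5.38%. Taking the mean of both fusions against EGFP, 7 members rose, where 4.56% of all features passed (2.37% higher and 2.19% lower), and with the block 14 rose and 1 fell, where 15.0% passed (7.98% higher and 6.99% lower). The count of 7 without the block was 2 without EGFP replicate 2 and 4 without EGFP replicate 3, where 1.69% and 3.24% of all features passed.

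**Figure D2:**
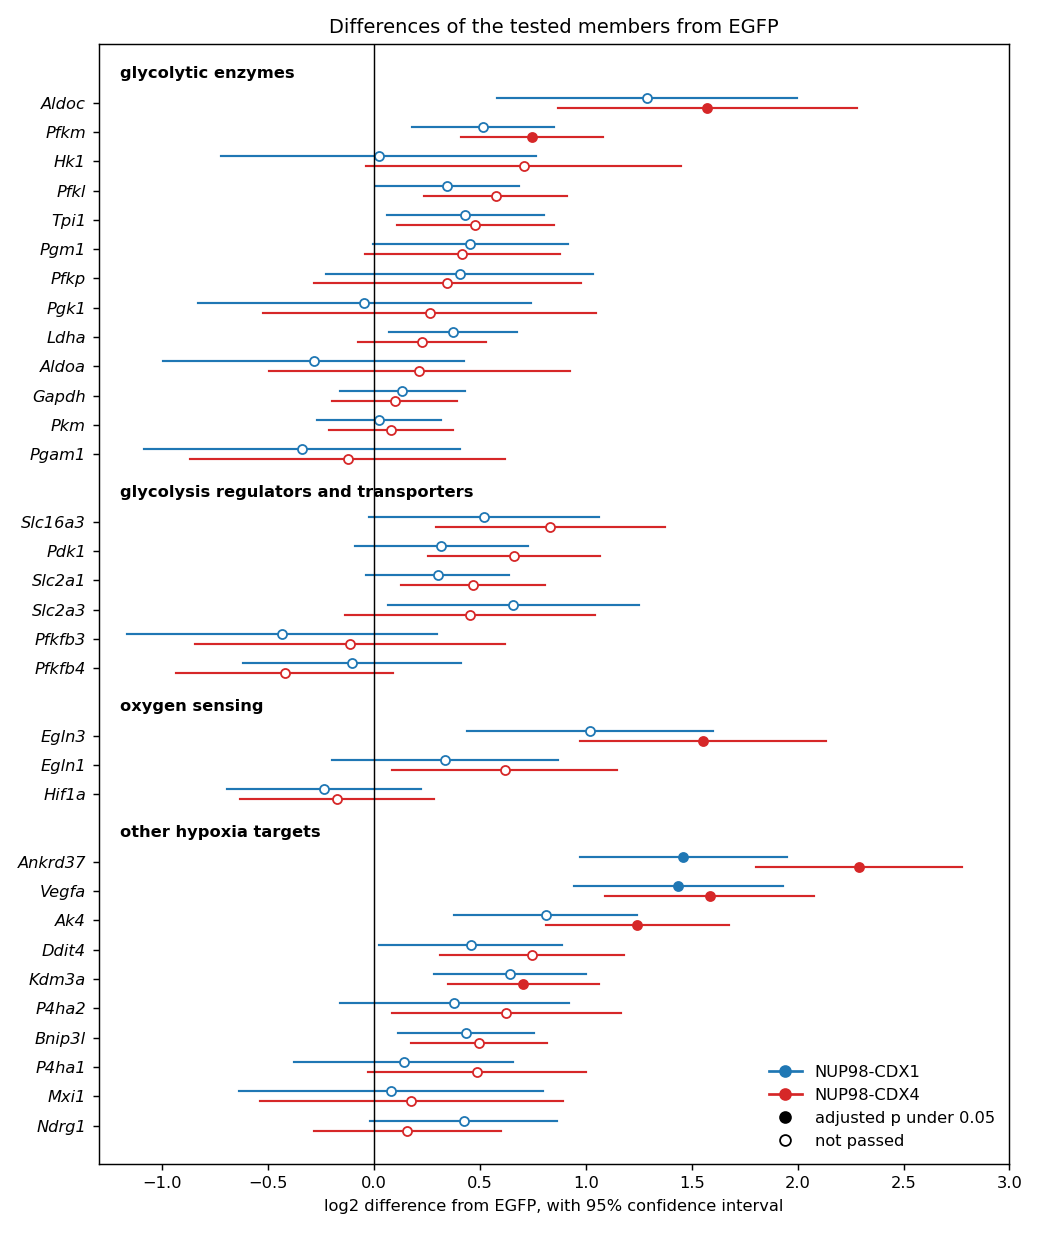
Log2 difference from EGFP (x axis) of the 32 tested members, grouped by role (y axis), for NUP98-CDX1 (blue) and NUP98-CDX4 (red), with 95% confidence intervals of the limma fit and filled points where the adjusted p was under 0.05. All 10 other hypoxia targets lie at or right of 0 in both fusions, with Ankrd37 (2.29 in NUP98-CDX4) farthest from 0, while in NUP98-CDX4 cells the enzymes run from Pgam1 (-0.12) to Aldoc (1.57).

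Among the other hypoxia targets, Ankrd37, an ankyrin repeat protein known as a HIF1A target, had the largest fitted difference from EGFP of the 32 members in NUP98-CDX4 cells. In NUP98-CDX1 cells its log2 difference (1.46) and that of Vegfa (1.44) were nearly equal. Its log2 intensity was 6.30, 6.42 and 6.12 on EGFP replicates 1 to 3, 7.60, 7.53 and 8.10 on the NUP98-CDX1 arrays and 8.64, 8.22 and 8.85 on the NUP98-CDX4 arrays. The 3 groups did not overlap, EGFP being lowest and NUP98-CDX4 highest. The gene was 2.75-fold higher in NUP98-CDX1 cells than in EGFP cells (log2 difference 1.46, SE 0.22, adjusted p = 0.0171) and 4.89-fold higher in NUP98-CDX4 cells (2.29, SE 0.22, adjusted p = 0.000709). Within the brighter and the dimmer array set the log2 difference was 1.74 and 1.44 for NUP98-CDX1, and 2.38 and 2.10 for NUP98-CDX4. The NUP98-CDX1 call was lost without any of the EGFP replicates or without NUP98-CDX1 replicate 1 or 2 (adjusted p up to 0.0785). NUP98-CDX4 exceeded NUP98-CDX1 by 0.83 (95% confidence interval 0.34 to 1.32, adjusted p = 0.239), and by 0.68 in the blocked fit (adjusted p = 0.0296).

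Vegfa, the growth factor that drives the sprouting of blood vessels, read 8.46, 7.86 and 7.76 on the EGFP arrays, 9.65, 9.48 and 9.26 on the NUP98-CDX1 arrays and 9.35, 9.72 and 9.77 on the NUP98-CDX4 arrays. Every fusion array lay above the EGFP arrays, and the fusions overlapped each other. The rise was 2.71-fold in NUP98-CDX1 cells (log2 difference 1.44, SE 0.22, adjusted p = 0.0190) and 3.00-fold in NUP98-CDX4 cells (1.58, SE 0.22, adjusted p = 0.00352). The difference between the fusions was 0.15, with a 95% confidence interval from -0.35 to 0.64. A second, dimmer Vegfa probe read 6.00, 6.27 and 6.53, then 8.05, 8.00 and 7.18, then 7.49, 7.97 and 7.88 in the same order of groups. It separated EGFP from both fusions too, by 1.47 (adjusted p = 0.0364) and 1.51 (adjusted p = 0.0100) when every filtered probe was tested. The NUP98-CDX1 call was lost without EGFP replicate 2 or 3 or NUP98-CDX1 replicate 1 or 2 (adjusted p up to 0.108).

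Ak4, a mitochondrial adenylate kinase, read 7.29, 7.29 and 7.33 on the EGFP arrays, 8.27, 7.68 and 8.39 on the NUP98-CDX1 arrays and 8.65, 8.41 and 8.57 on the NUP98-CDX4 arrays. The EGFP arrays were nearly equal and lowest, and every NUP98-CDX4 array lay above the NUP98-CDX1 arrays. Ak4 was 2.37-fold higher in NUP98-CDX4 cells (log2 difference 1.24, SE 0.19, adjusted p = 0.00616). The 1.75-fold difference in NUP98-CDX1 cells missed the threshold (0.81, SE 0.19, adjusted p = 0.0942) and passed with the block (adjusted p = 0.0185). The fusions differed by 0.43 (SE 0.19, adjusted p = 0.732).

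Kdm3a, a demethylase of histone H3 that is itself induced by low oxygen, read 9.47, 9.68 and 9.64 on the EGFP arrays, 10.07, 10.16 and 10.49 on the NUP98-CDX1 arrays and 10.20, 10.45 and 10.26 on the NUP98-CDX4 arrays. Both fusions lay above EGFP on every array and overlapped each other. The rise in NUP98-CDX4 cells was 1.63-fold (log2 difference 0.70, SE 0.16, adjusted p = 0.0352), and its 2 other probes, tested with every filtered probe, gave 0.76 (adjusted p = 0.0119) and 0.72 (adjusted p = 0.0305). In NUP98-CDX1 cells the 1.56-fold difference had an adjusted p of 0.110, and of 0.0316 with the block. Leaving out any array other than NUP98-CDX1 replicate 1 or 3 ended the NUP98-CDX4 call (adjusted p up to 0.134).

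Ddit4 and Bnip3l missed the threshold in NUP98-CDX4 cells and passed, higher, with array set as a block. Ddit4, which restrains growth signalling through mTORC1 under stress, read 9.36, 8.97 and 8.87 with EGFP, 9.48, 9.46 and 9.64 with NUP98-CDX1 and 10.13, 9.76 and 9.55 with NUP98-CDX4. The groups of each fusion did not overlap EGFP, and the 1.68-fold difference in NUP98-CDX4 cells had an adjusted p of 0.0612, and of 0.0137 with the block. Bnip3l, a receptor that marks mitochondria for removal, read 10.84, 10.71 and 10.68 with EGFP, 11.23, 11.13 and 11.17 with NUP98-CDX1 and 11.02, 11.36 and 11.32 with NUP98-CDX4. Here too every fusion array lay above EGFP, with a 1.41-fold difference in NUP98-CDX4 cells (adjusted p = 0.0912, with the block 0.0181). Its close relative Bnip3, likewise a mitophagy receptor, was detected on 0 of 9 arrays.

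The remaining hypoxia targets did not pass with or without the block. P4ha1 and P4ha2, which hydroxylate collagen, differed in NUP98-CDX4 cells by 0.49 (adjusted p = 0.359) and 0.62 (adjusted p = 0.225). P4ha2 was detected on 0 EGFP, 1 NUP98-CDX1 and 2 NUP98-CDX4 arrays. With its EGFP arrays raised to the lowest detected signal the P4ha2 difference was 1.1-fold, a bound without a test. Another, dimmer P4ha1 probe lay above EGFP on every NUP98-CDX4 array, by 0.81 (adjusted p = 0.0532 when every filtered probe was tested). In NUP98-CDX1 cells that probe gave 0.14 and overlapped EGFP. Ndrg1, a stress-induced gene, averaged 9.17, 9.59 and 9.32 in EGFP, NUP98-CDX1 and NUP98-CDX4, with SDs of 0.15, 0.09 and 0.37 (n = 3 each). Mxi1, which opposes MYC, averaged 7.06, 7.14 and 7.23, with an SD of 0.72 in EGFP.

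In the oxygen sensing group Egln3 rose in NUP98-CDX4 cells while Hif1a did not pass in either fusion. Egln3, a prolyl hydroxylase that targets HIF1A and is itself induced by it, read 10.79, 10.43 and 9.84 on the EGFP arrays, 11.13, 11.26 and 11.74 on the NUP98-CDX1 arrays and 12.09, 11.71 and 11.93 on the NUP98-CDX4 arrays. All fusion arrays lay above EGFP, and 2 of the 3 NUP98-CDX4 arrays lay above every NUP98-CDX1 array. Egln3 was 2.94-fold higher in NUP98-CDX4 cells (log2 difference 1.55, SE 0.26, adjusted p = 0.00890). In NUP98-CDX1 cells the 2.03-fold difference (1.02, SE 0.26) had an adjusted p of 0.118, and of 0.00277 with the block. Its 2 other, dimmer probes gave 0.88 (adjusted p = 0.118) and 1.06 (adjusted p = 0.247) in NUP98-CDX4 cells, in the same direction and not past the threshold. In NUP98-CDX1 cells they gave 0.23 (adjusted p = 0.784) and 0.43 (adjusted p = 0.745), well below the brightest probe's difference, with arrays that overlapped EGFP.

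Egln1, the main prolyl hydroxylase of HIF1A, read 6.35, 6.06 and 6.54 with EGFP, 6.80, 7.00 and 6.17 with NUP98-CDX1 and 6.70, 7.03 and 7.09 with NUP98-CDX4. On this brightest probe NUP98-CDX4 lay above EGFP on every array and NUP98-CDX1 overlapped both. The 1.53-fold difference of NUP98-CDX4 from EGFP passed only with the block (adjusted p = 0.222 without and 0.0318 with it). Of the dimmer Egln1 probes 1 showed the same pattern against EGFP (0.44 in NUP98-CDX4, 0.22 in NUP98-CDX1). On another NUP98-CDX4 overlapped EGFP (0.59) and every NUP98-CDX1 array lay above it (0.48). Neither passed when every filtered probe was tested. Hif1a itself averaged 8.40 ± 0.10 with EGFP, 8.16 ± 0.26 with NUP98-CDX1 and 8.22 ± 0.34 with NUP98-CDX4 (SD, n = 3 each). Its differences from EGFP were -0.23 (SE 0.20, adjusted p = 0.715) and -0.18 (SE 0.20, adjusted p = 0.859).

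Of the 13 glycolytic enzymes 2 rose in NUP98-CDX4 cells, 0 in NUP98-CDX1 cells, and 0 fell in either. At an unadjusted p under 0.05 the enzymes gave 4 (NUP98-CDX4) and 5 (NUP98-CDX1), all higher, against 8.34% and 6.88% of all features. The array set block gave 5 and 2, all higher, against 8.85% and 2.96%. Aldoc, the aldolase isoform best known from brain, which cleaves fructose bisphosphate, read 9.35, 8.58 and 8.45 on the EGFP arrays, 9.93, 9.88 and 10.43 on the NUP98-CDX1 arrays and 9.87, 10.34 and 10.89 on the NUP98-CDX4 arrays. Every fusion array lay above EGFP, replicate 1 being the highest EGFP array. The rise in NUP98-CDX4 cells was 2.98-fold (log2 difference 1.57, SE 0.31, adjusted p = 0.0205), and it did not pass without EGFP replicate 2, EGFP replicate 3 or NUP98-CDX4 replicate 3 (adjusted p up to 0.0925). In NUP98-CDX1 cells Aldoc was 2.44-fold higher (1.29, SE 0.31), with an adjusted p of 0.106, and of 0.0260 with the block.

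The phosphofructokinases carry out the committed step of glycolysis. Pfkm, the muscle-type isoform, read 10.45, 10.29 and 10.03 on the EGFP arrays, 10.74, 10.78 and 10.79 on the NUP98-CDX1 arrays and 10.89, 11.11 and 10.99 on the NUP98-CDX4 arrays. The 3 groups did not overlap, in the order EGFP, NUP98-CDX1, NUP98-CDX4. The rise was 1.68-fold in NUP98-CDX4 cells (log2 difference 0.75, SE 0.15, adjusted p = 0.0206), and the 1.43-fold difference in NUP98-CDX1 cells passed only with the block (adjusted p = 0.178 without and 0.0427 with it). Its 2 dimmer probes gave 0.70 and 0.65 in NUP98-CDX4 cells and did not pass (adjusted p = 0.131 and 0.276). The NUP98-CDX4 call on Pfkm was lost without EGFP replicate 2 or 3 or any of the NUP98-CDX4 replicates (adjusted p up to 0.0781).

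Pfkl, the liver-type isoform, read 12.10, 11.88 and 11.92 with EGFP, 12.28, 12.51 and 12.14 with NUP98-CDX1 and 12.56, 12.64 and 12.42 with NUP98-CDX4. Both fusions lay above EGFP on every array. The 1.49-fold difference of NUP98-CDX4 had an adjusted p of 0.0648, and of 0.0104 with the block, while a much dimmer second probe gave 0.02. Pfkp, the platelet-type isoform, differed from EGFP by a log2 value of 0.40 in NUP98-CDX1 (adjusted p = 0.655) and 0.35 in NUP98-CDX4 cells (adjusted p = 0.721).

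Tpi1, which interconverts the triose phosphates, read 13.50, 13.33 and 13.56 with EGFP, 13.86, 14.03 and 13.79 with NUP98-CDX1 and 13.79, 14.23 and 13.80 with NUP98-CDX4. The fusion arrays all lay above EGFP, yet the 1.39-fold difference of NUP98-CDX4 passed only with the block (adjusted p = 0.163 without and 0.0159 with it). Of its 2 other probes 1 gave similar values (0.45 in NUP98-CDX1 and 0.37 in NUP98-CDX4), also above EGFP on every array, and the other gave -0.41 and 0.26 with groups that overlapped. None of the 3 probes passed when every filtered probe was tested. Ldha, which turns pyruvate into lactate, read 14.12, 14.01 and 14.05 with EGFP, 14.54, 14.48 and 14.29 with NUP98-CDX1 and 14.22, 14.39 and 14.26 with NUP98-CDX4. Its fusion arrays also lay above EGFP without overlap, by 1.30-fold and 1.17-fold, and neither passed (adjusted p = 0.309 and 0.532, with the block 0.0830 and 0.141).

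Hk1, a hexokinase of the first step, read 8.59, 8.37 and 7.60 with EGFP, 8.04, 7.84 and 8.75 with NUP98-CDX1 and 9.08, 8.43 and 9.16 with NUP98-CDX4. These values, of the brightest Hk1 probe, overlapped between all groups and followed the array sets, being 0.79 higher on the brighter set (adjusted p = 0.000255). NUP98-CDX4 differed from EGFP by 1.63-fold with an adjusted p of 0.355, and of 0.00213 with the block. Inside each set alone the log2 difference was 0.65 (brighter) and 0.83 (dimmer). The other, dimmer Hk1 probe lay above EGFP on every fusion array. Its differences were 0.28 in NUP98-CDX1 and 0.37 in NUP98-CDX4 cells (adjusted p = 0.538 and 0.229 when every filtered probe was tested). Pgk1, Pgam1 and Aldoa, picked after their values were seen, were also higher on the brighter set, by 0.85, 0.77 and 0.74. Other enzymes went the other way, Pfkp differing by -0.61 (adjusted p = 0.00267) and Pgm1 by -0.36 (adjusted p = 0.022) on the brighter set. Pgk1 differed from EGFP by -0.05 and 0.26 in NUP98-CDX1 and NUP98-CDX4, Pgam1 by -0.34 and -0.12 and Aldoa by -0.28 and 0.21, and none of them passed with or without the block. Dimmer Pgk1 probes gave 0.08 and 0.74 in NUP98-CDX1 and 0.20 and 0.67 in NUP98-CDX4 cells, and did not pass. Gapdh and Pkm, the enzymes of the oxidative step and of pyruvate formation, differed from EGFP by 0.02 to 0.13 (adjusted p from 0.742 to 0.953), and Pgm1 by 0.45 and 0.42 (adjusted p = 0.454 and 0.389).

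**Figure D3:**
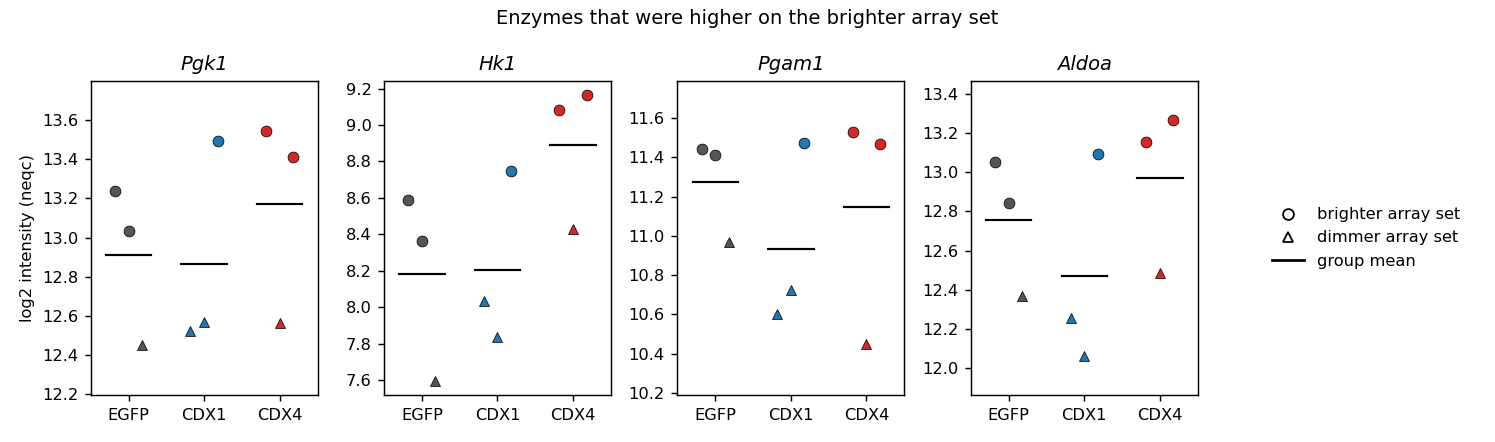
Log2 intensity (y axis) of the brightest probe of Pgk1, Hk1, Pgam1 and Aldoa by group (x axis), 1 point per array with bars at the group means, circles for the brighter and triangles for the dimmer array set. In each group the circles lie above the triangles, and for Hk1 the NUP98-CDX4 points lie above the EGFP points of the same set.

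The regulators and transporters gave 0 calls in either fusion without the block, where 1.04% (NUP98-CDX1) and 5.36% (NUP98-CDX4) of all features passed. At an unadjusted p under 0.05, 1 member was higher in NUP98-CDX1 and 3 in NUP98-CDX4, against 6.88% and 8.34% of all features. With the block, Pdk1, Slc2a1 and Slc16a3 were higher and Pfkfb4 lower in NUP98-CDX4 cells, where 8.85% of all features were higher and 7.91% lower. Pdk1, the kinase that keeps pyruvate out of the citrate cycle by switching off pyruvate dehydrogenase, read 10.05, 9.77 and 9.68 with EGFP, 9.99, 9.98 and 10.47 with NUP98-CDX1 and 10.43, 10.42 and 10.64 with NUP98-CDX4. NUP98-CDX4 lay above EGFP on every array and NUP98-CDX1 overlapped both groups, and the 1.58-fold difference of NUP98-CDX4 had an adjusted p of 0.0768, and of 0.00611 with the block.

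Slc2a1, the widespread glucose transporter GLUT1, read 10.41, 10.55 and 10.57 with EGFP, 10.75, 10.99 and 10.70 with NUP98-CDX1 and 10.96, 11.15 and 10.82 with NUP98-CDX4. Both fusions lay above EGFP, NUP98-CDX4 by 1.38-fold (adjusted p = 0.134, with the block 0.0167). Slc16a3, which exports lactate, read 5.61, 4.91 and 5.49 with EGFP, 6.07, 5.59 and 5.91 with NUP98-CDX1 and 5.80, 6.30 and 6.41 with NUP98-CDX4, and was detected on 2 of 3 EGFP arrays. NUP98-CDX4 lay above EGFP by 1.78-fold (adjusted p = 0.0921, with the block 0.0358), and the second probe of Slc16a3 gave -0.08.

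Slc2a3, a glucose transporter of high affinity, read 10.02, 9.58 and 9.43 with EGFP, 10.37, 10.19 and 10.44 with NUP98-CDX1 and 9.55, 10.56 and 10.27 with NUP98-CDX4. NUP98-CDX1 lay above EGFP on every array and NUP98-CDX4 did not, its replicate 1 falling among the EGFP values, and neither passed (adjusted p = 0.379 and 0.512). Pfkfb4, which sets the level of the phosphofructokinase activator fructose 2,6-bisphosphate, read 9.55, 9.52 and 9.84 with EGFP, 9.62, 9.81 and 9.18 with NUP98-CDX1 and 9.10, 9.62 and 8.93 with NUP98-CDX4. Its groups overlapped, and NUP98-CDX4 was lower than EGFP by a log2 difference of -0.42 (adjusted p = 0.461, with the block 0.0276). Pfkfb3, of the same enzyme family, was detected on 2 EGFP, 0 NUP98-CDX1 and 1 NUP98-CDX4 arrays and did not pass.

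**Figure D4:**
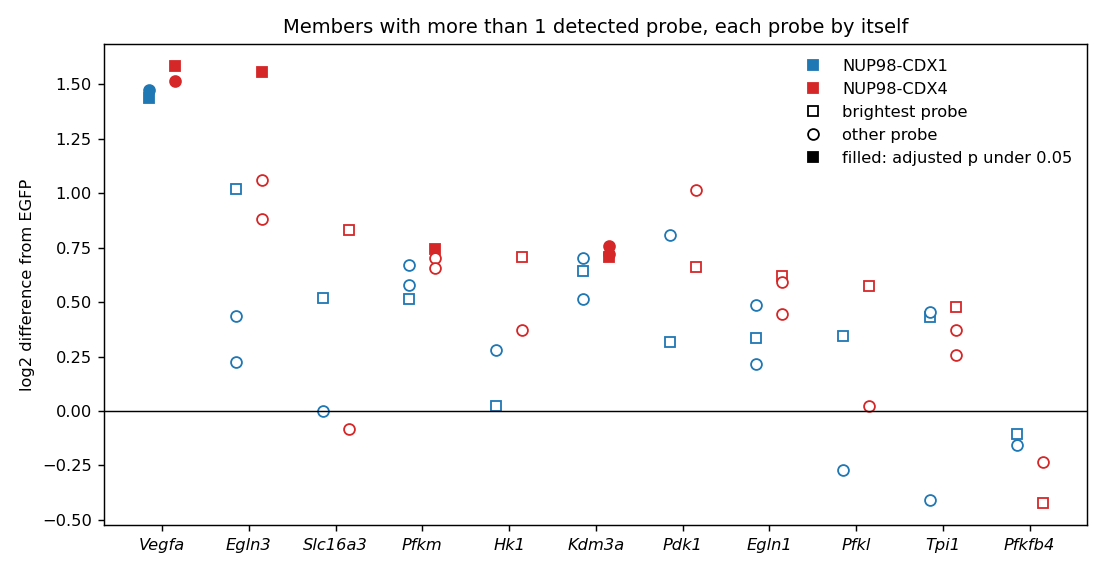
Log2 difference from EGFP (y axis) of each detected probe of the described members that have more than 1 (x axis), for NUP98-CDX1 (blue) and NUP98-CDX4 (red), squares for the brightest and circles for other probes, filled where the adjusted p was under 0.05 with every filtered probe tested. Both Vegfa probes and all 3 Kdm3a probes are filled for NUP98-CDX4, while the circles of Pfkl (0.02) and Slc16a3 (-0.08) lie near 0.

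Across members, 19 of the 32 had 25 further detected probes. In NUP98-CDX4 cells 23 of these 25 had the sign of the brightest probe and 3 passed, all higher. These 3 were probes of Vegfa and Kdm3a, and 4.85% of all filtered probes passed. In NUP98-CDX1 cells 18 had the same sign and 1, of Vegfa, passed, again higher, where 0.899% of all filtered probes passed.

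Genes of neighbouring pathways came from lists drawn up beside the members. Of 24 further hypoxia targets 1 rose in NUP98-CDX4 cells and 0 passed in NUP98-CDX1 cells, where 5.36% and 1.04% of all features passed. At an unadjusted p under 0.05 the count was 8 in each fusion, 7 of them higher. At that threshold 8.34% of all features were higher and 7.14% lower in NUP98-CDX4, and 6.88% and 4.30% in NUP98-CDX1. The gene that rose was Plod2, a lysyl hydroxylase of collagen, which read 5.80, 5.47 and 6.35 with EGFP, 7.18, 7.21 and 6.87 with NUP98-CDX1 and 7.05, 7.61 and 7.09 with NUP98-CDX4. Its fusion arrays lay above EGFP without overlap, by 2.60-fold in NUP98-CDX4 (log2 difference 1.38, adjusted p = 0.0130) and 2.32-fold in NUP98-CDX1 (1.22, adjusted p = 0.0611). In the mean of both fusions Hilpda, a lipid droplet protein, was also higher (0.68, adjusted p = 0.0278) and Hmox1, which breaks down haem, was lower (-0.84, adjusted p = 0.0457). In the blocked fit 6 of the 24 were higher and 0 lower in NUP98-CDX4 cells (Car12, Ccng2, Hilpda, Kdm4b, Narf and Plod2), where 16.8% of all features passed. In NUP98-CDX1 cells Hilpda, Narf and Plod2 were then higher and Hmox1 lower, where 5.73% passed. The median over the 24 genes was 0.22 in NUP98-CDX1 and 0.27 in NUP98-CDX4.

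Of 13 further glycolysis genes 0 passed in either fusion (0 and 1 at an unadjusted p under 0.05), the smallest p being that of Pygb, a glycogen phosphorylase, in NUP98-CDX4 (0.62, adjusted p = 0.0555). Of 20 genes of pyruvate dehydrogenase and the citrate cycle only Pdp2 rose in NUP98-CDX4 cells (0.55, adjusted p = 0.0447). Pdp2 is a phosphatase that switches pyruvate dehydrogenase on. In NUP98-CDX1 cells 0 of the 20 passed (1 at an unadjusted p under 0.05). Over all features 5.36% passed in NUP98-CDX4 and 1.04% in NUP98-CDX1 cells. At an unadjusted p under 0.05, 8.34% were higher and 7.14% lower in NUP98-CDX4, and 6.88% and 4.30% in NUP98-CDX1. Of 5 pentose phosphate genes Rpe, an epimerase of that pathway, rose 2.40-fold in NUP98-CDX4 cells (1.26, adjusted p = 0.0151) and had an adjusted p of 0.0869 in NUP98-CDX1 cells. Of 11 further oxygen sensing genes 0 passed in either fusion (1 in NUP98-CDX1 and 0 in NUP98-CDX4 at an unadjusted p under 0.05). Their median log2 difference was -0.12 (NUP98-CDX1) and -0.08 (NUP98-CDX4), and that of the further glycolysis genes 0.06 and 0.08. The blocked fit called further genes of these lists, where 16.8% of all features passed in NUP98-CDX4 and 5.73% in NUP98-CDX1 cells. Pygb (adjusted p = 0.00633), Idh3a of the citrate cycle, Pdp2 and Rpe were higher, and Pygl (-0.35, adjusted p = 0.0420), a glycogen phosphorylase, and Rpia, a pentose phosphate isomerase, lower in NUP98-CDX4 cells. In NUP98-CDX1 cells Rpe was higher, and 0 further oxygen sensing genes passed in either fusion.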

How the data were processed

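Total RNA of 9 samples in 3 groups of 3 was hybridised to single-colour Illumina bead arrays. Intensity values came from the authors' export of raw probe signals, per the file headers, made with GenomeStudio per the submitters' processing notes, its version being not given in the sources used here. Each probe's detection p-value was taken as deposited. The authors' processed intensities served as an alternative. The neqc function of limma 3.58.1 corrected the background, normalized by quantiles and took log2 (offset 16), in R 4.3.3 with package data.table (version 1.17.8). Of 45281 probes 19472 had a detection p under 0.05 on at least 3 arrays. The platform annotation gives 34885 probes 1 symbol, 18 several and 10378 none. The brightest probe by mean stood for a gene, giving 13160 features, 3142 of them without a symbol.

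The 9 arrays entered a single limma fit of group means with empirical Bayes variances, and the Benjamini-Hochberg adjustment ran over the 13160 features at a threshold of 0.05. List medians carry no test. The members, lists and tests were chosen with earlier results of these data known. Values by array are given for members that passed in any comparison, without or with array set as a block, and in each role group for the members with the largest differences and the brightest. From the pathway lists, genes that passed or had the smallest p are named. A group detected on 0 arrays gives a bound, its arrays raised to the lowest detected signal. The sets were found from the signals of undetected probes. Same-numbered samples of different groups correlated in their deviations at -0.792 to 0.672 over 9 pairs. Differently numbered ones correlated at -0.789 to 0.792 over 18 pairs. The sign followed the array sets, so these values cannot show whether the numbers pair the samples. Precision is limited by the number of arrays. The steps were tested on simulated data. Alternatives were normalization, offset, filter, probe choice, blocks, samples fitted, variance model and leaving out each array.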

Additional observations from a re-analysis of the deposited data

Results flagged for a closer look

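Ankrd37 was the 1 member that passed in a test of NUP98-CDX4 against NUP98-CDX1, and it passed only with array set as a block. That was 1 of 23 alternatives, and Ankrd37 passed in 0 of the 9 fits that left out 1 array. With array set as a block the log2 difference was 0.682 (adjusted p = 0.0296), every NUP98-CDX4 array lying above every NUP98-CDX1 array. Without the block it was 0.83 with an adjusted p of 0.239, and within the brighter and the dimmer array set it was 0.64 and 0.66. The NUP98-CDX1 samples carry day 28 and the NUP98-CDX4 samples days 17 to 20 in the column headers, so day and fusion cannot be told apart.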

How the results depend on the processing

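The directions of the gene differences that passed without or with the array-set block held under all alternatives except with the second brightest probe, where the mean of both fusions against EGFP turned to -0.12 for Pfkl and -0.077 for Tpi1 and NUP98-CDX4 against EGFP to -0.081 for Slc16a3. The calls of Vegfa and Ankrd37 in NUP98-CDX4 passed under all 23 alternatives (highest adjusted p 0.0453 and 0.0378), and in NUP98-CDX1 under 16 and 15. The number of members called in NUP98-CDX1 (2) became 1 with median scaling, 7 with the array-set block and 0 with a replicate block. The share of all features called (1.04%) became 0.919%, 5.73% and 0.251% in the same order. In NUP98-CDX4 the number of members (7) became 11 without background correction, 17 with the array-set block and 4 with a replicate block. It became 11 with a variance trend and robust fit. The share of all features (5.36%) became 5.86%, 16.8%, 3.27% and 5.62% in that order. Between the fusions the number of members became 1 with array set as a block, where 1.47% of all features passed. For the mean of both fusions (7) it became 15 with the array-set block and 3 with a replicate block. All features gave 15.0% and 2.31% there. The dimmer set holds 1 EGFP and 1 NUP98-CDX4 array, and the brighter set 1 NUP98-CDX1 array. Counts of members called within a set are therefore not given, though these fits are among the 23 alternatives. The replicate block spends degrees of freedom on the replicate numbers, and whether these pair the samples is not known. Leaving out 1 array gave 0 to 2 members in NUP98-CDX1, 4 to 8 in NUP98-CDX4, 0 to 0 between the fusions and 2 to 7 for the mean. The shares of all features called in these fits were 0.251% to 1.12%, 2.52% to 5.5%, 0.0076% to 0.312% and 1.69% to 4.36%. The enzyme median in NUP98-CDX1 (0.35) became 0.237 with median scaling, 0.230 with the authors' processed values, 0.0832 with the second brightest probe and 0.152 within the brighter set. In NUP98-CDX4 it became 0.225 with the second brightest probe, and between the fusions (0.22) it became 0.0944 within the brighter and 0.118 within the dimmer set. Leaving out 1 array moved the enzyme medians over 0.248 to 0.431, 0.320 to 0.459 and 0.0790 to 0.216, and those of the other hypoxia targets over 0.414 to 0.532, 0.558 to 0.680 and 0.0994 to 0.222. Median scaling moved the median of all features between the fusions to 0.107. The causes of these shifts were not tested otherwise. Signal over background limits Pfkfb3, P4ha2 and Slc16a3, which were not detected on every array.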
